A study of Mus musculus with 32 samples.

Results

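Lung endothelial cells (ECs) given TNF were compared directly with the same cells given IFN, to find which genes prefer one cytokine over the other. The comparison was of 4 si-control + TNF libraries against 4 si-control + IFN libraries, picked by their labels alone from the 32 libraries of the series. Of the 54429 gene symbols in the merged count table, 15250 passed a filter on low counts and were tested. All 8 libraries came from Veravec, a mouse lung EC line, and all of the cells had received a control siRNA, with a repeat transfection a day later. The cytokine was TNFα in the TNF group, given at 10 ng/mL, and IFNγ in the IFN group, given at 1000 U/mL, each left on the cells for 16 h. Libraries of si-control with no cytokine, of si-control + TNF + IFN and of cells with siRNA against Dnmt1 (si-dnmt) are set beside them where named. The series has 8 groups of 4 libraries. It describes 1 cell line at 1 dose and 1 time of each cytokine, and the doses are in different units, so a preference is between these treatments. The study calls the replicates biological, and nothing used here says that they were separate cultures, so p-values measure the spread between these samples.

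TNF binds the receptor Tnfrsf1a and, through TRAF adaptors, frees the transcription factor NF-κB from its inhibitor IκBα, which Nfkbia encodes and NF-κB itself induces. IFNγ binds Ifngr1 and Ifngr2, and the kinases Jak1 and Jak2 then activate STAT transcription factors, which bind GAS sites and induce Irf1. Irf1 acts at interferon-stimulated response elements (ISREs) and at the promoter of Ciita, the switch for MHC class II genes. In ECs, TNF is best known for adhesion molecules and chemokines that recruit leukocytes, and IFNγ for antigen presentation.

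Total counts ranged from 20904131 to 22677895 in the TNF libraries and from 18749380 to 20957935 in the IFN libraries (17362546 to 33500030 over all 32). On the first principal component of log2 CPM (CPM being counts scaled by TMM factors and library total), which held 52.1% of the variance of the 8 libraries, TNF lay between −59.01 and −34.97 and IFN between 31.07 and 61.32. The second component, with 24.8%, set replicates 1 and 2 (18.67 to 44.29) apart from replicates 3 and 4 (−38.58 to −24.12) of both cytokines. The labels do not say what separates these replicate sets, so values are listed in the order of replicates 1 to 4. The 16 endothelial markers summed to 4670 to 6790 CPM with TNF, 6170 to 9910 CPM with IFN and 7370 to 11100 CPM without cytokine, and none of the 16 was at 0. Leukocyte markers summed to 18.2 to 80.7 CPM with TNF and 22.3 to 105 CPM with IFN, nearly all of it Lyz2, while Cd3e, Cd3g and Adgre1 were at 0 in both groups. Fibroblast markers (6 genes) summed to 17.9 to 61 CPM with TNF, 22.5 to 38.2 CPM with IFN and 43.4 to 80.6 CPM without cytokine, with Lum at 0 in all. Epithelial markers reached at most 22.6 CPM and pericyte markers at most 3.82 CPM in any of these libraries. In bulk RNA, fewer cells of a kind and less RNA per cell cannot be told apart.

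**Figure D1:**
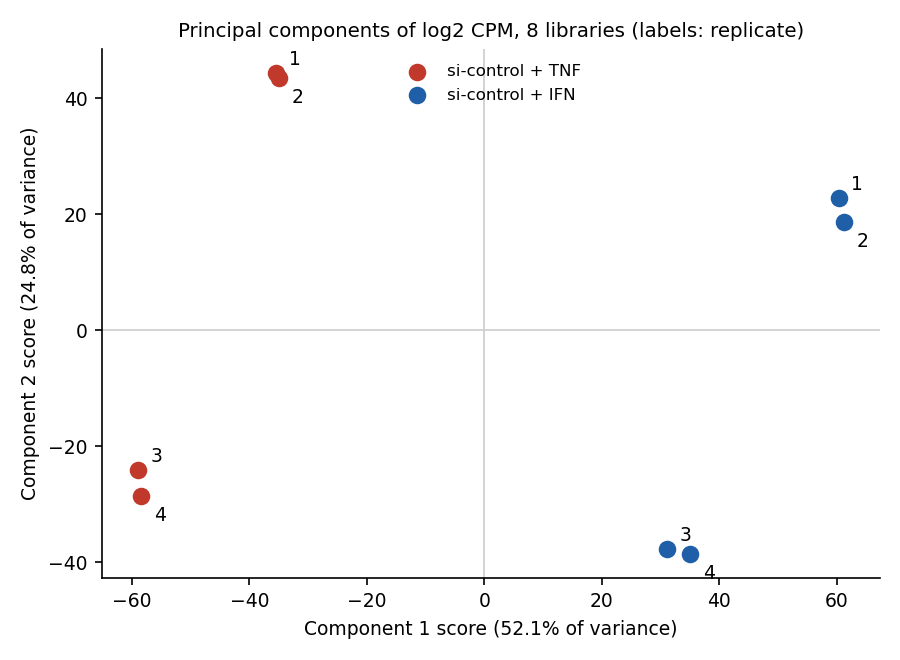
Principal components of log2 CPM over all genes tested, with component 1 on the x axis, component 2 on the y axis (arbitrary units) and 1 point per library. The 4 TNF libraries sit between −59.01 and −34.97 and the 4 IFN libraries between 31.07 and 61.32 on component 1, and replicates 1 and 2 lie above replicates 3 and 4 on component 2.

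A few promoters that hold κB, GAS or ISRE letters are shown, and most promoters of genes called at least 2-fold held none of these motifs. Windows of 30 bases from RefSeq promoters (GRCm38.p6) are printed 5′ to 3′ on the strand of the gene, with the motif in capitals. They are shown for genes whose values follow, first the κB element of genes higher with TNF. The 3 CXC chemokine genes Cxcl1, Cxcl2 and Cxcl3 carry the same 11 bases, 71, 97 and 73 bases before the start.
Cxcl1, chr5:90891165-90891194: ctgtactccGGGAATTTCCCtggcccggag
Cxcl2, chr5:90903793-90903822: ctgagctcaGGGAATTTCCCtggtccccgg
Cxcl3, chr5:90786019-90786048: agctgcgggGGGAATTTCCCcagcccgggc
Nfkbia, chr12:55492657-55492686, minus strand: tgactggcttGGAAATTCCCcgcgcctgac
Madcam1, chr10:79664479-79664508: aagccccctgGGAAAGTCCCacagagccgg
Ccl20, chr1:83116676-83116705: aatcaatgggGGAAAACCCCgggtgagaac

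Genes higher with IFN are shown with their GAS element (TTCNNNGAA) or ISRE (GAAANNGAAA, searched on both strands). The Gbp2 element reads on the other strand, and the Socs1 window holds 2 overlapping ISREs.
Irf1, GAS, chr11:53769914-53769943: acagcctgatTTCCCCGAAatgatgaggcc
Irf8, GAS, chr8:120736195-120736224: aagagagcgcTTCAGAGAAggcggatttgg
Gbp2, ISRE, chr3:142620594-142620623: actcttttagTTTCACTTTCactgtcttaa
Igtp, ISRE, chr11:58199512-58199541: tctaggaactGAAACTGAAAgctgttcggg
Socs1, ISRE, chr16:10785597-10785626, minus strand: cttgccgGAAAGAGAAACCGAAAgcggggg
Cxcl10, a gene that both cytokines raised, has both kinds of element.
Cxcl10, ISRE, chr5:92349083-92349112, minus strand: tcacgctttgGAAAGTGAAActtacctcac
Cxcl10, κB, chr5:92348973-92349002, minus strand: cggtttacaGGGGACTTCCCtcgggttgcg

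Over whole promoters (250 bases before to 50 after the start), the κB consensus was found in 19% of 489 promoters of genes called at least 2-fold higher with TNF and in 13.2% of 707 promoters of genes called at least 2-fold higher with IFN. All promoters of tested genes held it in 10.5% of 13451 cases and all 32851 promoters in the table in 8.46%. The ISRE was in 3.68% on the TNF side, 7.36% on the IFN side, 3.28% of promoters of tested genes and 3.44% of all. GAS was in 8.18%, 11.3%, 6.97% and 8.3% in the same order. The table held a promoter for 371 of 554 genes of the TNF side, 536 of 805 of the IFN side and 10527 of 15250 tested. A match is a run of letters and not a measured binding site. The 11 bases of the Cxcl genes hold overlapping κB matches on both strands. A promoter was counted once for each motif it held, wherever motifs overlapped.

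Between TNF and IFN, edgeR's quasi-likelihood test called 4327 of the 15250 genes (28.4%) at an adjusted p under 0.05, 2027 higher with TNF (13.3%) and 2300 higher with IFN (15.1%). With a fold of at least 2 as a further condition, 554 genes were higher with TNF (3.63%) and 805 with IFN (5.28%). At least 4-fold differences were called for 244 and 254 genes, and at least 16-fold differences for 77 and 64. An alternative with the replicate number as a block called 3038 of the 15250 genes higher with TNF and 3333 higher with IFN. List counts given below for the block stand beside these larger counts and not beside 13.3% and 15.1%. In 1756 genes (11.5%) all 4 TNF libraries lay above all 4 IFN libraries, and in 2010 (13.2%) the reverse held. The balance between the sides depended on scaling. Genes higher with TNF made up 46.8% of calls with TMM, 50% with RLE size factors and 62.3% with library totals, as the median log2 fold change of all genes moved from −0.016 to 0.003 and 0.085.

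Of the 12 genes named for the widest differences toward IFN, 7 were Ciita and genes of MHC class II presentation. Values below are CPM of replicates 1 to 4, and log2 fold changes (± SE) are TNF minus IFN, so that a negative one is higher with IFN. Ciita (ENSMUSG00000022504), the MHC class II transactivator, measured 0.988, 1.266, 0.173 and 0.0929 CPM with TNF and 238, 278, 100.1 and 124 CPM with IFN (−8.19 ± 0.71, adjusted p = 6.61e-10). H2-Ab1 (ENSMUSG00000073421), a class II β chain, measured 0.258, 0.281, 0 and 0.139 CPM with TNF and 166, 208, 55.3 and 64.05 CPM with IFN (−9.47 ± 0.93, adjusted p = 1.95e-08). For both genes the IFN libraries of replicates 1 and 2 were the highest, and no TNF library came near the lowest IFN library. H2-Eb1 (−8.86 ± 0.86), H2-DMb1 (−8.55 ± 0.66), H2-Aa (−8.28 ± 0.98) and Cd74 (−6.89 ± 0.72), the chain that guides class II molecules, followed the same order. H2-DMb2, a subunit of the peptide editor, had no count in any TNF library and 1.62, 2.65, 0.873 and 1.94 CPM with IFN, at least 13.2-fold higher against a floor of 3 counts per library (0.135 CPM with TNF). H2-Aa, H2-Ab1 and the H2-DMb pair have close relatives, and how the counting split shared reads is not known.

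The other genes of these 12 were Apol6, Serping1, Ido1, C4b and Chodl, and Apol6 (an apolipoprotein L) and Serping1 had wider fitted differences than any MHC class II gene. Apol6 (ENSMUSG00000033576) measured 0.0859, 0.188, 0.130 and 0.0929 CPM with TNF and 149, 129, 105 and 104 CPM with IFN (−9.88 ± 0.32, adjusted p = 9.99e-19). Serping1 (ENSMUSG00000023224), the C1 esterase inhibitor, measured 0, 0.0469, 0.130 and 0 CPM with TNF and 41.6, 52.6, 24.4 and 28.9 CPM with IFN. The TNF libraries held 3 counts or fewer each, and the ratio of summed counts was 826.3 (95% exact Poisson interval 322.3 to 3035, counting error only). Its fitted log2 fold change moved from −9.51 to −10.78 without TNF replicate 3. Ido1, which degrades tryptophan, measured 0.234 to 0.511 CPM with TNF and 33.8 to 64.3 CPM with IFN (−7.04 ± 0.52, adjusted p = 2.67e-11). C4b, complement component 4, measured 0.371 to 1.45 and 39.1 to 131 CPM (−6.75 ± 0.86, adjusted p = 6.84e-07), with a near-identical copy, C4a, as a possible source of shared reads. Chodl differed from the others. It measured 3.66, 4.40, 0.440 and 1.03 CPM without cytokine, 0 in all 4 TNF libraries and 2.24, 2.71, 0.654 and 0.756 CPM with IFN, so that it was called lower with TNF than without cytokine (adjusted p = 6.48e-05) and was at least 11.8-fold higher with IFN.

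The 12 genes named for the widest differences toward TNF were Myh15, Pglyrp2, Madcam1, Mmp9, Spib, Ccl20, Saa3, St8sia6, Mmp3, Enpp2, Ltb and Prnd, in the order of their fitted log2 fold changes. Madcam1 (ENSMUSG00000020310), a ligand for the gut-homing integrin α4β7, measured 19.6, 16.6, 5.06 and 4.64 CPM with TNF and 0, 0.0520, 0 and 0.0540 CPM with IFN, a count ratio of 424.8 (117.3 to 3513). Ccl20 (ENSMUSG00000026166), the ligand of Ccr6, measured 20.2, 15.2, 9.21 and 12.1 CPM and 0, 0.156, 0.0545 and 0.162 CPM, a ratio of 150.2 (72.7 to 374.5). Both were highest in TNF replicates 1 and 2 and near 0 in every IFN library. Spib, an Ets-family factor of the lymphoid lineage, measured 7.05, 7.97, 9.21 and 10.1 CPM with TNF and 0, 0, 0.109 and 0.108 CPM with IFN, a ratio of 158.4 (61.6 to 582.8). Mmp9 measured 2.71, 2.58, 9.26 and 10.3 CPM with TNF, and a single IFN library (replicate 3, 0.109 CPM) held any count, for a ratio of 229 (63.1 to 1895). Its fitted log2 fold change was 7.56 ± 0.91 and became 10.05 without that library.

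Myh15 (ENSMUSG00000092009), a myosin heavy chain, measured 3.57, 3.98, 3.07 and 2.51 CPM with TNF and had no count in any IFN library, at least 20.2-fold higher against the IFN floor of 0.162 CPM. Pglyrp2, an amidase for bacterial peptidoglycan, measured 2.41, 2.53, 3.20 and 2.92 CPM with TNF and none with IFN, at least 17.0-fold higher. That the 4 and 4 values did not overlap was a condition for naming both genes. Saa3, an acute-phase protein, measured 15.8, 14.5, 1.82 and 2.74 CPM with TNF and 0.0560, 0.0520, 0.164 and 0 CPM with IFN, a ratio of 128.9 (55 to 398) that leaned on replicates 1 and 2. Ltb, lymphotoxin β, measured 4.94, 3.80, 0.606 and 0.418 and 0.0560, 0, 0 and 0.0540 CPM (ratio 90.7, 24.8 to 753.5). Prnd, the prion-like protein doppel, measured 2.28, 2.11, 0.606 and 0.464 and 0.0560, 0, 0 and 0 CPM (ratio 101, 17.8 to 4023). Leaving out 1 library moved the fitted log2 fold change of Saa3 from 6.89 to 7.70 (IFN replicate 3), that of Ltb from 6.21 to 5.61 (TNF replicate 1) and that of Prnd from 6.14 to 7.88 (IFN replicate 1).

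**Figure D2:**
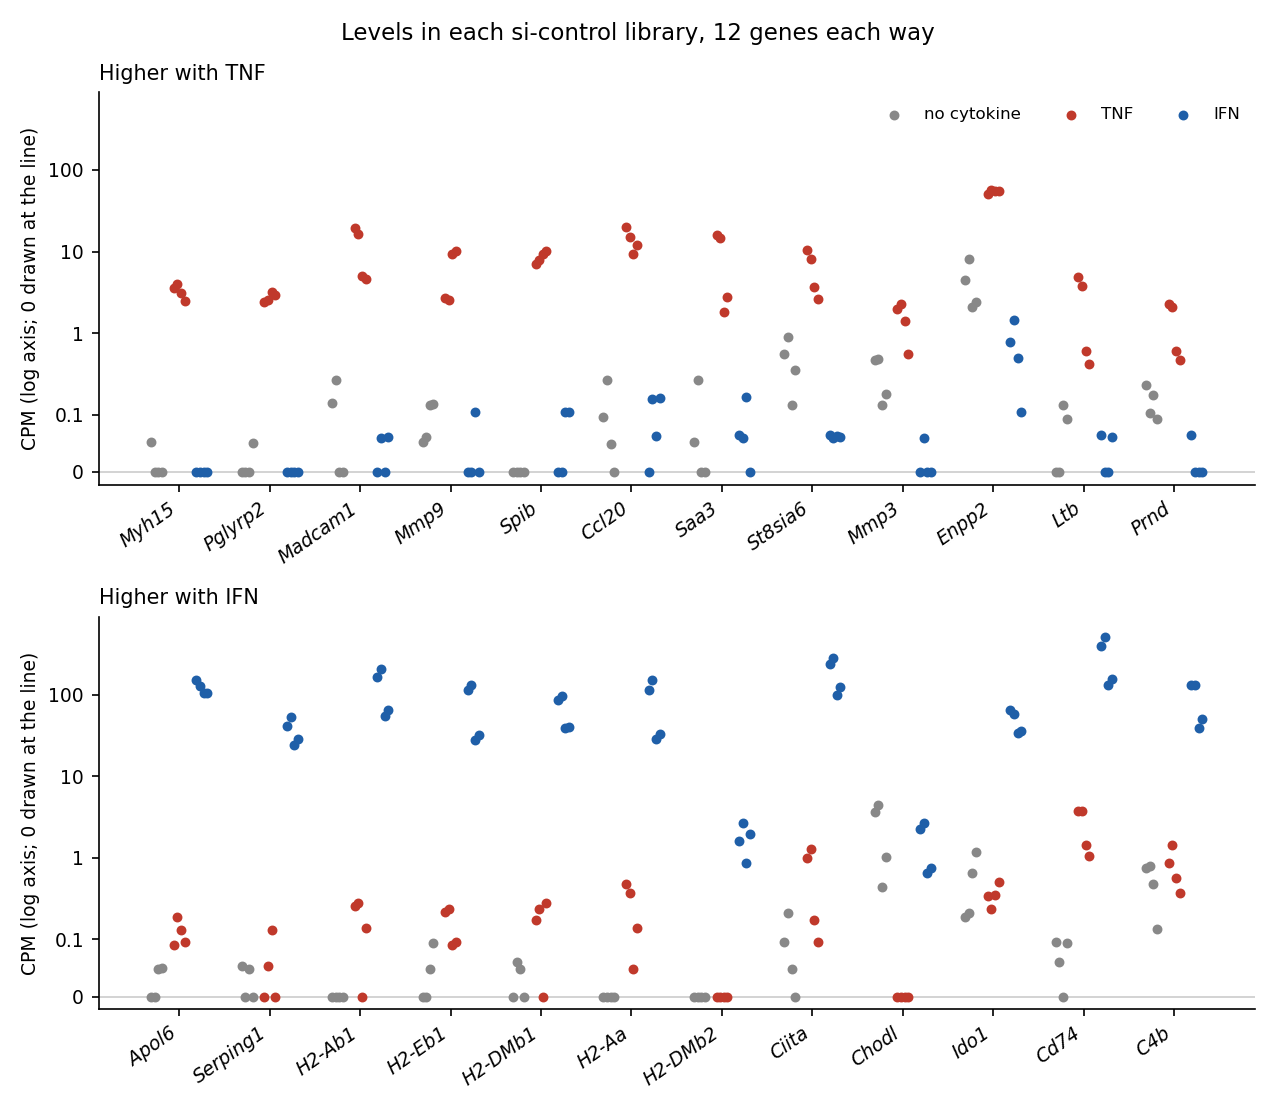
CPM of leading genes in every library on a log axis, with 1 point per library for no cytokine (grey), TNF (red) and IFN (blue), replicates 1 to 4 from left to right and 0 drawn at the line. TNF points lie above IFN points for the 12 genes of the upper panel and below them for the 12 of the lower panel. The lack of overlap was a condition for naming these genes.

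Ifngr1, Ifngr2 and Tnfrsf1a were each higher with the cytokine that they do not bind. Ifngr1 (ENSMUSG00000020009), the ligand-binding chain of the IFNγ receptor, measured 40.3, 48.7, 37.7 and 38.8 CPM without cytokine, 134, 139, 128 and 132 CPM with TNF and 31.7, 34.5, 29.2 and 27.2 CPM with IFN (2.12 ± 0.11, adjusted p = 4.96e-14). It rose with TNF (1.68, adjusted p = 6.14e-12 against no cytokine) and fell with IFN (−0.43, adjusted p = 0.00752). Ifngr2, the second chain, was also higher with TNF (0.75 ± 0.15, adjusted p = 0.000285). Tnfrsf1a (ENSMUSG00000030341), the main TNF receptor, measured 219.7, 228, 209 and 197 CPM without cytokine, 109.7, 124, 116 and 121 CPM with TNF and 269.7, 316, 238 and 281 CPM with IFN (−1.23 ± 0.11, adjusted p = 8.34e-10). It fell with TNF (−0.86, adjusted p = 5.38e-07) and rose with IFN (0.37, adjusted p = 0.0165), and no library of one cytokine overlapped the other. Tnfrsf1b, the second TNF receptor, measured 24.5 to 38.4 and 29.03 to 40.3 CPM, and its difference did not pass the test (−0.10 ± 0.13, adjusted p = 0.611).

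Of 22 NF-κB subunits, brakes and TNF adaptors, all tested, 17 were higher with TNF and 1, Tnfrsf1a, with IFN. Among all genes 13.3% and 15.1% were. The median log2 fold change of the list was 0.73 beside −0.016 for all genes. Against no cytokine, 19 rose with TNF and 5 with IFN, beside 16.1% and 8.57% of all genes. Tnfaip3 (A20), which switches NF-κB signalling off, measured 111, 119, 141 and 141 CPM with TNF and 24.1, 24.3, 25.1 and 25.4 CPM with IFN (2.37 ± 0.18, adjusted p = 4.97e-11). Relb, the subunit of the non-canonical pathway, measured 66.1, 68.3, 83.1 and 92.3 and 21.3, 23.4, 13.5 and 16.6 CPM (2.05 ± 0.18, adjusted p = 8.51e-10), and its partner Nfkb2 measured 133, 146, 161 and 174 and 63.9, 77.6, 47.8 and 58.98 CPM (1.31 ± 0.14, adjusted p = 1.99e-08). In these genes every TNF library lay above every IFN library. Nfkbia, whose κB window is printed above, measured 121, 135, 59.5 and 62.2 CPM without cytokine, 251, 268, 244 and 253 CPM with TNF and 90.5, 106, 41.6 and 53.7 CPM with IFN (1.80 ± 0.22, adjusted p = 4.75e-07). The subunits Nfkb1 (0.44) and Rela (0.59) differed by less. Tnip2 (−0.25), Nfkbiz (−0.34) and Bcl3 (0.73) were not called, though Bcl3 was with the replicate number as a block (0.76, adjusted p = 0.000697).

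Of 20 genes of the IFNγ receptor, JAK-STAT, IRF and SOCS list, 11 were higher with IFN and 3 with TNF. These counts stand beside 15.1% and 13.3% of all genes, and the median was −0.42. With the replicate number as a block 5 were higher with TNF, which adds Irf7 and Irf9. Irf1, a direct target of the pathway, measured 40.7, 41.98, 32.6 and 27.8 CPM without cytokine, 145, 163, 128 and 143 CPM with TNF and 839, 918, 595 and 662 CPM with IFN (−2.38 ± 0.15, adjusted p = 1.21e-12). Both cytokines raised it, by 2.01 and 4.397 on the log2 scale. Socs1, the feedback inhibitor of JAK kinases, measured 2.71, 3.19, 3.37 and 4.41 and 44.05, 50.4, 31.7 and 47.4 CPM (−3.66 ± 0.27, adjusted p = 3.12e-11). For both genes every IFN library lay above every TNF library.

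Irf8, a partner of Irf1 better known from myeloid cells, measured 42.1, 42.9, 25.2 and 26.7 CPM without cytokine, 30.2, 38.9, 16.5 and 18.2 CPM with TNF and 432, 475, 248 and 294 CPM with IFN (−3.80 ± 0.41, adjusted p = 4.87e-08), so that the rise was measured with IFN and the change with TNF did not pass the test (−0.40, adjusted p = 0.462). Batf2, an AP-1 factor, measured 1.33, 1.64, 1.64 and 1.90 and 92.2, 112, 59.5 and 79.8 CPM (−5.72 ± 0.27, adjusted p = 1.71e-15). Socs3, the inhibitor of gp130 signalling, moved in opposite directions. It measured 39.7, 42.3, 16.96 and 14.8 CPM without cytokine, 16.6, 16.2, 6.27 and 8.77 CPM with TNF and 91.2, 111, 37.2 and 53.2 CPM with IFN (−2.61 ± 0.47, adjusted p = 0.00011). Both changes from no cytokine were called. Irf5 was the IRF that preferred TNF, at 6.62, 10.5, 17.7 and 18.1 CPM against 1.18, 1.67, 1.31 and 1.35 CPM (3.26 ± 0.27, adjusted p = 3.94e-10). Jak1 (−0.02, adjusted p = 0.943) and Irf9 (0.21, adjusted p = 0.0761, and with the block 0.21, adjusted p = 0.0174), parts of the machinery already present, did not pass the test. Stat5a (−0.46) and Irf3 (−0.38) were called but lost the call on leaving out single libraries (Stat5a IFN 2 or 4 or TNF 1 or 2, adjusted p to 0.234, and Irf3 IFN 1 or 2, adjusted p to 0.0635).

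MHC class I genes rose with both cytokines and further with IFN. Against no cytokine, 16 of the 18 genes for class I loading and the immunoproteasome rose with TNF and 17 with IFN. Among all genes 16.1% and 8.57% did. Between the cytokines 15 were higher with IFN and 1 with TNF, beside 15.1% and 13.3% of all genes, with a median of −1.08. H2-T23 (Qa-1), a non-classical class I molecule that NK cells read, showed the widest preference, at 63.04, 61.2, 50.6 and 57.5 CPM with TNF and 602, 652, 320.5 and 403 CPM with IFN (−3.09 ± 0.30, adjusted p = 6.67e-09). Psmb9, an immunoproteasome subunit, measured 31.6, 26.4, 21.8 and 22.9 and 152, 162, 139 and 172 CPM (−2.60 ± 0.19, adjusted p = 1.5e-11), and Tap1, the peptide transporter, 159.6, 193, 127 and 144 and 638, 723, 466 and 567 CPM (−1.94 ± 0.19, adjusted p = 6.37e-09). No TNF library reached an IFN library in these genes. Nlrc5, the class I transactivator and counterpart of Ciita, measured 18.5 to 24.4 CPM without cytokine, 54.5 to 94.6 CPM with TNF and 182 to 328 CPM with IFN (−1.87 ± 0.24, adjusted p = 8.05e-07).

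The heavy chain H2-K1 measured 1319, 1279, 813 and 898 CPM with TNF and 2963, 3272, 1381 and 1719 CPM with IFN (−1.11 ± 0.34, adjusted p = 0.0134), and B2m, the shared light chain, 2639, 2593, 2022 and 2176 and 4445, 5089, 3106 and 3351 CPM (−0.76 ± 0.23, adjusted p = 0.0127). IFN replicates 1 and 2 stood well above IFN replicates 3 and 4 in both. Calls in this list rested on single libraries for 5 genes: H2-K1 (adjusted p = 0.0699 without IFN replicate 2, and also lost without IFN 1 or TNF 3), B2m (0.0712 without IFN 2), Tapbp (0.128 without IFN 2, and lost without IFN 1, TNF 1, TNF 3 or TNF 4), Erap1 (0.0642 without IFN 2, and lost without IFN 1) and Canx (0.0706 without IFN 4, and lost without TNF 3). Canx, a chaperone of the endoplasmic reticulum, was the gene higher with TNF (0.22 ± 0.07, adjusted p = 0.0206). The chaperones Calr (−0.13, adjusted p = 0.34) and Pdia3 (−0.29, adjusted p = 0.0763) did not pass the test, though Pdia3 did with the replicate number as a block (−0.30, adjusted p = 0.00362).

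MHC class II was on the IFN side alone among the genes called. Of 11 genes tested, 9 were higher with IFN and none with TNF, beside 15.1% and 13.3% of all genes. Every alternative run gave 9 or 10 and none, and the median was −8.19 (−6.89 with genes near 0 set at their bounds). Against no cytokine 9 rose with IFN and 2 with TNF, beside 8.57% and 16.1% of all genes. Cd74 was among the 2, at 0 to 0.0939 CPM without cytokine and 1.07 to 3.78 CPM with TNF (adjusted p = 0.00176). Cd74 reached 396, 513, 133 and 154 CPM with IFN. H2-DMa, the partner of H2-DMb1, measured 0.559, 0.703, 0.649 and 0.279 CPM with TNF and 65.5, 62.6, 39.4 and 37.3 CPM with IFN (−6.53 ± 0.42, adjusted p = 1.82e-12), and Ctss, the protease that trims Cd74, 0.129, 0.281, 0.519 and 0.232 and 3.59, 3.85, 1.58 and 2.43 CPM (−3.27 ± 0.59, adjusted p = 9.37e-05). Ifi30, a lysosomal reductase, measured 4.69 to 7.43 and 4.76 to 10.2 CPM and was not called (−0.31, adjusted p = 0.437). H2-Oa, a brake on peptide editing, had at most 0.129 CPM in any of the 8 libraries.

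All 16 guanylate-binding proteins and IRG GTPases, which attack the vacuoles of intracellular pathogens, were higher with IFN (15.1% of all genes were), from −1.10 for Gbp3 to −6.12 for Gbp11, with a median of −3.20. All 16 also rose with TNF against no cytokine, beside 16.1% of all genes. Gbp2 (ENSMUSG00000028270) measured 76.3, 82.2, 78.7 and 82.6 CPM without cytokine, 357, 533, 359 and 358 CPM with TNF and 7601, 9242, 5885 and 5951 CPM with IFN (−4.16 ± 0.22, adjusted p = 2.92e-14). Igtp (Irgm3), whose ISRE window is printed above, measured 128, 174, 74.1 and 80.8 and 1908, 2208, 1418 and 1436 CPM (−3.93 ± 0.31, adjusted p = 8.71e-11). Gbp11 measured 1.29, 3.47, 2.12 and 1.72 and 201, 216, 92.1 and 87.98 CPM (−6.12 ± 0.55, adjusted p = 1.35e-09), Gbp8 3.27, 5.06, 4.71 and 6.08 and 201, 200.4, 177 and 176 CPM (−5.30 ± 0.24, adjusted p = 1.03e-15) and Gbp10 31.2, 41.4, 34.6 and 33.9 and 1092, 1313, 820.4 and 835 CPM (−4.85 ± 0.33, adjusted p = 6.4e-12). The smallest preferences were those of Gbp3 (−1.10 ± 0.18) and Gbp9 (−1.24 ± 0.23). In no member did a TNF library reach an IFN library. Neighbouring Gbp genes and the Tgtp1 and Tgtp2 pair are near-identical, so their single values are uncertain.

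Antiviral interferon-stimulated genes gave another picture. Of 30, 28 rose with TNF and 26 with IFN against no cytokine, beside 16.1% and 8.57% of all genes. Between the cytokines 2 were called higher with TNF and 5 with IFN, beside 13.3% and 15.1% of all genes. The IFN share was thus near that of all genes, and the median was 0.12. Those higher with IFN were Samhd1 (−2.77 ± 0.21, adjusted p = 4.97e-11), which depletes nucleotides, Zbp1 (−1.89 ± 0.28, adjusted p = 5.61e-06), a sensor of Z-form nucleic acid, Dtx3l (−0.87), Herc6 (−0.71) and Parp9 (−0.53, call lost without IFN replicate 2, adjusted p = 0.053). Samhd1 measured 132, 151, 145 and 141 CPM with TNF and 1122, 1146, 826 and 769 CPM with IFN. Oas2, a sensor of double-stranded RNA, was higher with TNF (29.1, 37.98, 49.1 and 42.4 against 22.6, 21.02, 12.7 and 14.4 CPM, 1.17 ± 0.29, adjusted p = 0.00281). Ifit1, which binds foreign RNA caps, was called higher with TNF (0.82 ± 0.29, adjusted p = 0.0362) and lost the call without IFN 3 or 4 or TNF 1 or 2 (adjusted p up to 0.129). Isg15, a ubiquitin-like protein, measured 231, 199.5, 127 and 153 CPM with TNF and 184, 185, 116 and 116 CPM with IFN (0.24 ± 0.27, adjusted p = 0.56), and the 4 and 4 values overlapped.

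Calls in the antiviral list changed with the replicate sets. With the replicate number as a block, 9 were called higher with TNF and 7 with IFN. In replicates 1 and 2 alone the counts were 6 and 10, and in replicates 3 and 4 alone 17 and 7. Rsad2 (viperin), for example, measured 488, 601, 278 and 248 CPM with TNF and 386, 332, 97.1 and 96.5 CPM with IFN (0.83 ± 0.44, adjusted p = 0.167, and with the block 0.93, adjusted p = 0.0168). Its IFN values were below its TNF values within each set while the pooled ranges overlapped. Oas3 (−0.15) and Oasl2 (−0.11), not called, were higher with IFN within replicates 1 and 2 (−0.68 and −0.44) and higher with TNF within replicates 3 and 4 (0.40 and 0.22).

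Leukocyte adhesion molecules divided between the cytokines. Of 13 tested, 4 were higher with TNF and 4 with IFN, beside 13.3% and 15.1% of all genes. With the replicate number as a block 7 were higher with IFN (3333 of all genes were), and the median was −0.30. Vcam1 (ENSMUSG00000027962), the ligand of integrin α4β1 on lymphocytes, measured 44.5, 43.5, 49.8 and 49.6 CPM without cytokine, 842, 839, 772 and 752 CPM with TNF and 129, 121, 108 and 92.1 CPM with IFN (2.83 ± 0.12, adjusted p = 1.06e-16). Sele (E-selectin), on which leukocytes roll, measured 31.9, 35.8, 28.3 and 27.04 CPM without cytokine, 111, 109, 57.05 and 50.97 CPM with TNF and 20.5, 15.3, 38.1 and 34.1 CPM with IFN (1.60 ± 0.25, adjusted p = 1.53e-05), and its log2 fold change was 2.61 in replicates 1 and 2 and 0.58 in replicates 3 and 4. Icam1, the ligand of LFA-1, measured 671, 743, 489 and 539.5 and 477, 562, 271 and 323 CPM (0.58 ± 0.22, adjusted p = 0.0439). Its call was lost without IFN replicate 3 or 4 or TNF replicate 1 or 2, with adjusted p up to 0.153, while both cytokines raised it (1.43 and 0.85). Vcam1 thus separated the cytokines in every library, and Icam1 did so within each replicate set with overlap between the sets.

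The 4 adhesion genes higher with IFN were already present at rest, as were Vcam1 and Sele on the TNF side. Icam2, a constitutive endothelial ligand, measured 138, 140.1, 79.2 and 83.98 CPM with TNF and 188, 224, 174 and 208 CPM with IFN (−0.85 ± 0.24, adjusted p = 0.00896), and Alcam 24.7, 22.8, 45.98 and 34.9 and 60.5, 60.3, 77.5 and 66.2 CPM (−1.04 ± 0.24, adjusted p = 0.00136). Jam2, a junctional molecule, measured 2.16, 2.28, 4.35 and 5.11 CPM without cytokine, 0.172, 0.703, 0.865 and 0.836 with TNF and 1.01, 1.04, 3.49 and 2.43 with IFN (−1.62 ± 0.48, adjusted p = 0.011, with adjusted p = 0.0685 without IFN replicate 3). Pecam1 (CD31) measured 1088, 1188, 845 and 792 CPM with TNF and 1489, 1764, 1171 and 1237 CPM with IFN (−0.53 ± 0.17, adjusted p = 0.0173), a call lost without IFN 1 or 2 or TNF 3 or 4 (adjusted p up to 0.113). Alcam, Jam2 and Pecam1 fell with TNF against no cytokine, by 0.97, 2.43 and 0.73 on the log2 scale. Selp, the second selectin, fell with TNF as well (−1.04, adjusted p = 0.000621) and was not called between the cytokines (−0.54, adjusted p = 0.0644, and with the block −0.54, adjusted p = 0.0404).

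Chemokines leaned to TNF. Of 15 tested, 11 were higher with TNF and 2 with IFN, beside 13.3% and 15.1% of all genes, with a median of 1.93. Against no cytokine all 15 rose with TNF, beside 16.1% of all genes. The neutrophil attractants Cxcl1, Cxcl2, Cxcl3 and Cxcl5, ligands of Cxcr2, had log2 fold changes of 3.10 ± 0.46, 5.17 ± 0.58, 5.70 ± 0.47 and 4.55 ± 0.45. Cxcl1 measured 17.8, 47.8, 6.77 and 8.74 CPM without cytokine, 133, 111, 93.4 and 108 CPM with TNF and 11.6, 22.9, 7.75 and 9.61 CPM with IFN (adjusted p = 6.38e-06). Cxcl5 moved both ways, with 19.3 to 30.6 CPM at rest, 158 to 210.1 CPM with TNF and 3.98 to 11.1 CPM with IFN, the last a fall (−1.64, adjusted p = 0.00599). Every TNF library lay above every IFN library in these 4 genes, 3 of which share the κB element shown above.

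Ccl2, which recruits monocytes, measured 3238, 3061, 2399 and 2662 CPM with TNF and 1390, 1627, 782 and 818 CPM with IFN (1.30 ± 0.30, adjusted p = 0.00157). Ccl5, which recruits T cells and monocytes, measured 124, 128, 139.5 and 176 and 31.3, 33.9, 8.89 and 11.2 CPM (2.74 ± 0.36, adjusted p = 1.41e-06), 1.94 in replicates 1 and 2 and 3.97 in replicates 3 and 4. Cx3cl1, a membrane-bound chemokine, measured 69.4, 79.8, 96.7 and 101 and 39.3, 53.7, 48.05 and 60.9 CPM (0.78 ± 0.18, adjusted p = 0.00147). Both cytokines raised Ccl5 and Cx3cl1, and TNF further. Cxcl12, which holds Cxcr4-bearing cells, rose with TNF (1.65, adjusted p = 0.00774), was not called with IFN against no cytokine (−0.29, adjusted p = 0.768) and was higher with TNF than with IFN (1.94 ± 0.47, adjusted p = 0.00234).

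The ligands of Cxcr3, the receptor of Th1 and CD8 T cells, did not move as 1 group. Cxcl9 measured 0.0469, 0.159, 0.0440 and 0.0449 CPM without cytokine, 3.78, 4.22, 2.85 and 3.20 CPM with TNF and 179.9, 166, 57.6 and 43.8 CPM with IFN (−4.99 ± 0.59, adjusted p = 2.06e-07). Cxcl10 (ENSMUSG00000034855) measured 9.48, 6.57, 16.6 and 15.7 CPM without cytokine, 283, 349.6, 222 and 241 CPM with TNF and 381, 437, 172 and 165 CPM with IFN (−0.08 ± 0.27, adjusted p = 0.866). Cxcl9 separated the cytokines in every library, and Cxcl10 overlapped. Within replicates 1 and 2 Cxcl10 was higher with IFN (−0.38, adjusted p = 0.0417) and within replicates 3 and 4 higher with TNF (0.46, adjusted p = 0.00019). With both cytokines together it measured 1975, 2046, 1441 and 1532 CPM, above every library of either alone. Cxcl11 measured 9.71, 12.5, 6.01 and 7.29 and 23.99, 22.6, 2.67 and 3.56 CPM (−0.57 ± 0.50, adjusted p = 0.426), with the same turn (−1.08 in replicates 1 and 2 and 1.09 in replicates 3 and 4). Ccl8, the other chemokine higher with IFN, measured 1.76, 0.985, 0.995 and 1.25 and 16.4, 13.5, 2.51 and 3.13 CPM (−2.82 ± 0.59, adjusted p = 0.000528), −3.43 in replicates 1 and 2 and −1.33 in replicates 3 and 4.

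Among interleukins and colony-stimulating factors 6 of 13 were higher with TNF and 2 with IFN, beside 13.3% and 15.1% of all genes. The IFN share was thus near that of all genes, and the median was 1.17. Csf1, the growth factor of macrophages, measured 1109, 1146, 1571 and 1640 CPM with TNF and 490.2, 568, 493 and 520.1 CPM with IFN (1.40 ± 0.14, adjusted p = 5.69e-09). Il34, the other ligand of the Csf1 receptor, measured 3.09, 2.91, 3.24 and 3.95 and 0.112, 0.104, 0.0545 and 0.216 CPM (4.69 ± 0.47, adjusted p = 8.96e-09). Both ligands of 1 receptor were thus higher with TNF in all 4 libraries. Csf2 (GM-CSF) measured 2.19, 1.22, 0.995 and 0.9749 CPM with TNF and held counts in 1 IFN library, replicate 1, at 0.168 CPM (4.86 ± 0.79, adjusted p = 2.67e-05, and 7.86 without that library). Il15, which sustains memory CD8 and NK cells, was higher with IFN at 42.98, 40.5, 27.7 and 25.9 against 20.4, 22.5, 21.1 and 22.3 CPM (−0.67 ± 0.19, adjusted p = 0.00727), and so was Il18 (−1.46 ± 0.36, adjusted p = 0.00235). Il1a (2.74 ± 0.64, 3.45 without IFN replicate 2), Tslp (1.17, adjusted p = 0.0604 without TNF 2) and Ebi3 (2.23, adjusted p up to 0.119 on leaving out a library, any but IFN 2 or TNF 2, and 5.22 with adjusted p = 0.00372 without IFN 2) were low and were called higher with TNF. Il6 measured 16.3, 16.9, 2.25 and 2.74 and 10.03, 11.2, 1.91 and 1.67 CPM and was not called (0.62, adjusted p = 0.582).

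Of 13 co-stimulatory and inhibitory ligands and receptors tested, 4 were higher with TNF and 3 with IFN, beside 13.3% and 15.1% of all genes. The median was 0.18. With the replicate number as a block the counts were 5 and 5, beside 3038 and 3333 of all genes. Cd274 (PD-L1, ENSMUSG00000016496), which restrains T cells, measured 7.27, 8.32, 9.32 and 9.06 CPM without cytokine, 51.4, 68.2, 46.9 and 42.9 CPM with TNF and 649, 661, 297 and 286 CPM with IFN (−3.18 ± 0.26, adjusted p = 1.76e-10). Ido1, also a restraint on T cells, was given above. Tnfsf10 (TRAIL), a death ligand, measured 91.5, 104, 29.2 and 28.6 and 262, 237, 111 and 99.2 CPM (−1.48 ± 0.45, adjusted p = 0.0128), and lost the call without IFN 1, TNF 3 or TNF 4 (adjusted p up to 0.0565).

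The ligands higher with TNF included 2 that stimulate T cells. Tnfsf4 (OX40L) measured 3.66, 5.14, 3.03 and 2.96 CPM without cytokine, 10.1, 7.60, 15.7 and 13.7 CPM with TNF and 1.62, 1.67, 2.67 and 1.40 CPM with IFN (2.67 ± 0.24, adjusted p = 1.35e-09), a rise with TNF and a fall with IFN (−0.998, adjusted p = 0.00534). Icosl, the ligand of ICOS, measured 1.68, 1.74, 2.25 and 2.83 CPM with TNF and 0.0560, 0, 0 and 0.270 CPM with IFN (4.61 ± 0.56, adjusted p = 2.9e-07, and 6.48 without IFN replicate 4). Cd40, the receptor for CD40L, measured 1.55, 2.48, 1.21 and 1.16 and 0.841, 0.884, 0.709 and 0.216 CPM (1.26 ± 0.36, adjusted p = 0.00809), at a level near rest (0.583 to 1.32 CPM). The Cd40 call was lost when the compared groups were fitted alone (1.29, adjusted p = 0.0588). Icosl and Tnfsf4 did not overlap between the cytokines. Tnfsf15 was called (2.13, adjusted p = 0.0121) and lost the call without TNF replicate 2 (1.53, adjusted p = 0.0808), within replicates 1 and 2 (1.85, adjusted p = 0.108) and within replicates 3 and 4 (2.81, adjusted p = 0.0538), and was at 2.98 (adjusted p = 0.0041) without IFN replicate 1.

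Of 16 cell death and inflammasome genes 2 were higher with TNF and 2 with IFN, with a median of −0.17, a share near the 28.4% of all genes called. The counts were 3 and 3 with the replicate number as a block, 2 and 6 within replicates 1 and 2, and 2 and 4 within replicates 3 and 4. Nlrp3, the inflammasome sensor, measured 2.45, 2.34, 2.16 and 2.27 CPM with TNF and 0, 0.156, 0.0545 and 0.162 CPM with IFN (4.53 ± 0.49, adjusted p = 4.34e-08). Fas, a death receptor, measured 17.96, 18.7, 28.9 and 30.7 and 10.9, 10.3, 14.2 and 12.96 CPM (0.99 ± 0.23, adjusted p = 0.0016). Mlkl (−0.43 ± 0.10, adjusted p = 0.00115), the executor of necroptosis, was higher with IFN. Within replicates 3 and 4 alone it was not called (−0.15, adjusted p = 0.109). Casp8 (0.04), Ripk1 (−0.19, adjusted p = 0.192) and Cflar (0.005, adjusted p = 0.989), which set the course of signalling at the TNF receptor, did not pass the test.

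Complement genes had a median of −1.19, with 2 of 11 higher with TNF, beside 13.3% of all genes. With the replicate number as a block 4 were, beside 3038 of all genes. Most, 6 of 11, were higher with IFN, beside 15.1% of all genes. Besides C4b and Serping1, these included C1ra (55.1, 63.5, 64.2 and 70.5 CPM with TNF and 194, 228, 114 and 121 CPM with IFN, −1.38 ± 0.24, adjusted p = 5.4e-05) and C1s1 (−1.90 ± 0.62), the proteases of C1, and C2 (−1.19 ± 0.28). The C1s1 call was lost without IFN 1 or 2 or TNF 3 or 4 (adjusted p up to 0.0854). C3 and Cfb of the alternative pathway were not called. C3 measured 265, 341, 32.7 and 35.3 CPM without cytokine, 1533, 1751, 851 and 839 CPM with TNF and 867, 933, 113 and 128 CPM with IFN (1.29 ± 0.81, adjusted p = 0.253, and with the block 1.88, adjusted p = 1.58e-05), and factor B, Cfb, 34.2, 34.1, 12.9 and 16.02 and 15.2, 14.3, 4.47 and 6.86 CPM (1.25 ± 0.53, adjusted p = 0.0786, and with the block 1.274, adjusted p = 2.24e-05). Within each replicate set C3 and Cfb were higher with TNF, and over all 4 replicates the ranges of both overlapped. Cd55, which protects cells from complement, was higher with TNF (0.93 ± 0.12, adjusted p = 1.07e-06). Cd59a was called higher with TNF (0.45, adjusted p = 0.0169) and lost the call without TNF 1 or 2 (adjusted p up to 0.127), and both cytokines lowered it.

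In coagulation and fibrinolysis 5 of 13 were higher with IFN and 1 with TNF, beside 15.1% and 13.3% of all genes (median −0.08). Thbd (thrombomodulin), which turns thrombin to an anticoagulant role, measured 124, 131, 232 and 246 and 308, 324, 346 and 398 CPM (−0.91 ± 0.18, adjusted p = 0.00024) and fell with TNF (−0.65, adjusted p = 0.00528). Procr, its partner in activating protein C, was likewise higher with IFN (−0.71 ± 0.13, adjusted p = 0.000192). Vwf, which tethers platelets, fell with both cytokines and further with TNF, from 35.7 to 57.4 CPM to 2.37 to 4.77 CPM with TNF and 9.83 to 12.7 CPM with IFN (−1.59 ± 0.28, adjusted p = 8.3e-05). F3 (tissue factor) rose with both and was not called between them (−0.08, adjusted p = 0.94), while replicates 1 and 2 gave −1.57 (adjusted p = 1.26e-06) and replicates 3 and 4 gave 0.45 (adjusted p = 0.0146).

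Of 12 matrix proteases and inhibitors, 4 were higher with TNF and 2 with IFN, beside 13.3% and 15.1% of all genes, with a median of 0.29. With the replicate number as a block the counts were 6 and 3, beside 3038 and 3333 of all genes. Beside Mmp9 and Mmp3, Mmp13, a collagenase, measured 7.13, 7.64, 9.34 and 7.43 CPM with TNF and 0.504, 0.520, 0.218 and 0.540 CPM with IFN (4.13 ± 0.36, adjusted p = 7.46e-10). Adamts4, an aggrecanase, was higher with TNF (1.63 ± 0.22, adjusted p = 2.36e-06). Timp3, an inhibitor of metalloproteinases, moved in opposite directions, with 454, 467, 585 and 628 CPM without cytokine, 161, 167, 286 and 272 CPM with TNF and 1483, 1430, 979.7 and 1031 CPM with IFN (−2.48 ± 0.17, adjusted p = 8.93e-12). Adamts1 fell with TNF (−2.0, adjusted p = 8.3e-05) and was higher with IFN (−1.56 ± 0.35, adjusted p = 0.00113).

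Cell cycle genes leaned to TNF. Of 20, 8 were higher with TNF and none with IFN, beside 13.3% and 15.1% of all genes, with a median of 0.34. Against no cytokine 15 rose with TNF and none with IFN, beside 16.1% and 8.57% of all genes. The 8 held 5 subunits of the replicative helicase, Mcm2, Mcm3, Mcm4, Mcm5 and Mcm6 (0.72 to 0.85), the polymerase clamp Pcna (0.83 ± 0.17, adjusted p = 0.000422), Ccne1 (0.58) and Bub1 (0.76). Mcm6 measured 74.4, 79.5, 119 and 115 CPM without cytokine, 156, 168, 195 and 191 CPM with TNF and 70.4, 76.4, 127 and 120.2 CPM with IFN. Bub1 lost its call without IFN 1 or 2 or TNF 3 (adjusted p up to 0.0612) and Mcm5 without IFN 1 or 2 or TNF 4 (up to 0.0743). Within replicates 1 and 2 all 20 were called higher with TNF, and within replicates 3 and 4 8 were, with 2 higher with IFN. The mitotic marker Mki67 measured 335, 349, 544 and 488 and 165, 151, 397 and 341 CPM (0.70 ± 0.28, adjusted p = 0.0569, and with the block 0.74, adjusted p = 0.0123).

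Endothelial markers were lower with TNF where they were called over all 4 replicates. Of 16, 5 were higher with IFN and none with TNF, beside 15.1% and 13.3% of all genes. With the replicate number as a block the counts were 12 and none, beside 3333 and 3038 of all genes. Within replicates 1 and 2, 7 were higher with IFN and 2, Tek and Kdr, with TNF. Within replicates 3 and 4, 13 were higher with IFN and 1, Emcn, with TNF. Against no cytokine 7 fell with TNF and 1 with IFN, beside 14.6% and 5.92% of all genes. The IFN share was thus near that of all genes. Eng (endoglin), a co-receptor for TGFβ, measured 479.6, 589, 546 and 568 CPM with TNF and 1117, 1538, 799.7 and 1025 CPM with IFN (−1.04 ± 0.17, adjusted p = 3.01e-05). Cldn5, a tight junction claudin, measured 7.91, 6.94, 1.60 and 1.02 and 32.2, 42.4, 8.13 and 11.6 CPM (−2.43 ± 0.86, adjusted p = 0.0333). The calls of Cldn5, Egfl7 (−1.19), Tie1 (−0.66) and Pecam1 were each lost on leaving out 1 library (IFN 1, IFN 2, TNF 3 or TNF 4 for Cldn5, IFN 2, TNF 3 or TNF 4 for Egfl7 and Tie1, adjusted p up to 0.116, 0.0604 and 0.0964), and the count of the list was then 1 to 5. Cdh5 (VE-cadherin), the defining junction protein, measured 1347, 1583, 1071 and 1078 CPM with TNF and 1990, 2364, 1305 and 1471 CPM with IFN (−0.49 ± 0.23, adjusted p = 0.116, and with the block −0.47, adjusted p = 0.000133). Markers of other cells moved beside these. Dcn, a fibroblast marker, measured 0.891, 1.91, 0.835 and 0.449 CPM without cytokine, 53.8, 53.5, 12.1 and 11.9 CPM with TNF and 1.68, 1.20, 1.36 and 0.810 CPM with IFN (4.70 ± 0.72, adjusted p = 1.08e-05). Of 4 fibroblast markers tested, Pdgfra was the other called higher with TNF. It measured 0.159 to 0.942 CPM without cytokine, 1.88 to 3.06 CPM with TNF and 0.056 to 0.818 CPM with IFN. Col3a1 went the other way (−2.71 ± 0.32, adjusted p = 1.65e-07), Col1a1 stayed at or under 1.14 CPM and Lum was at 0. Their part in the other differences was not tested.

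**Figure D3:**
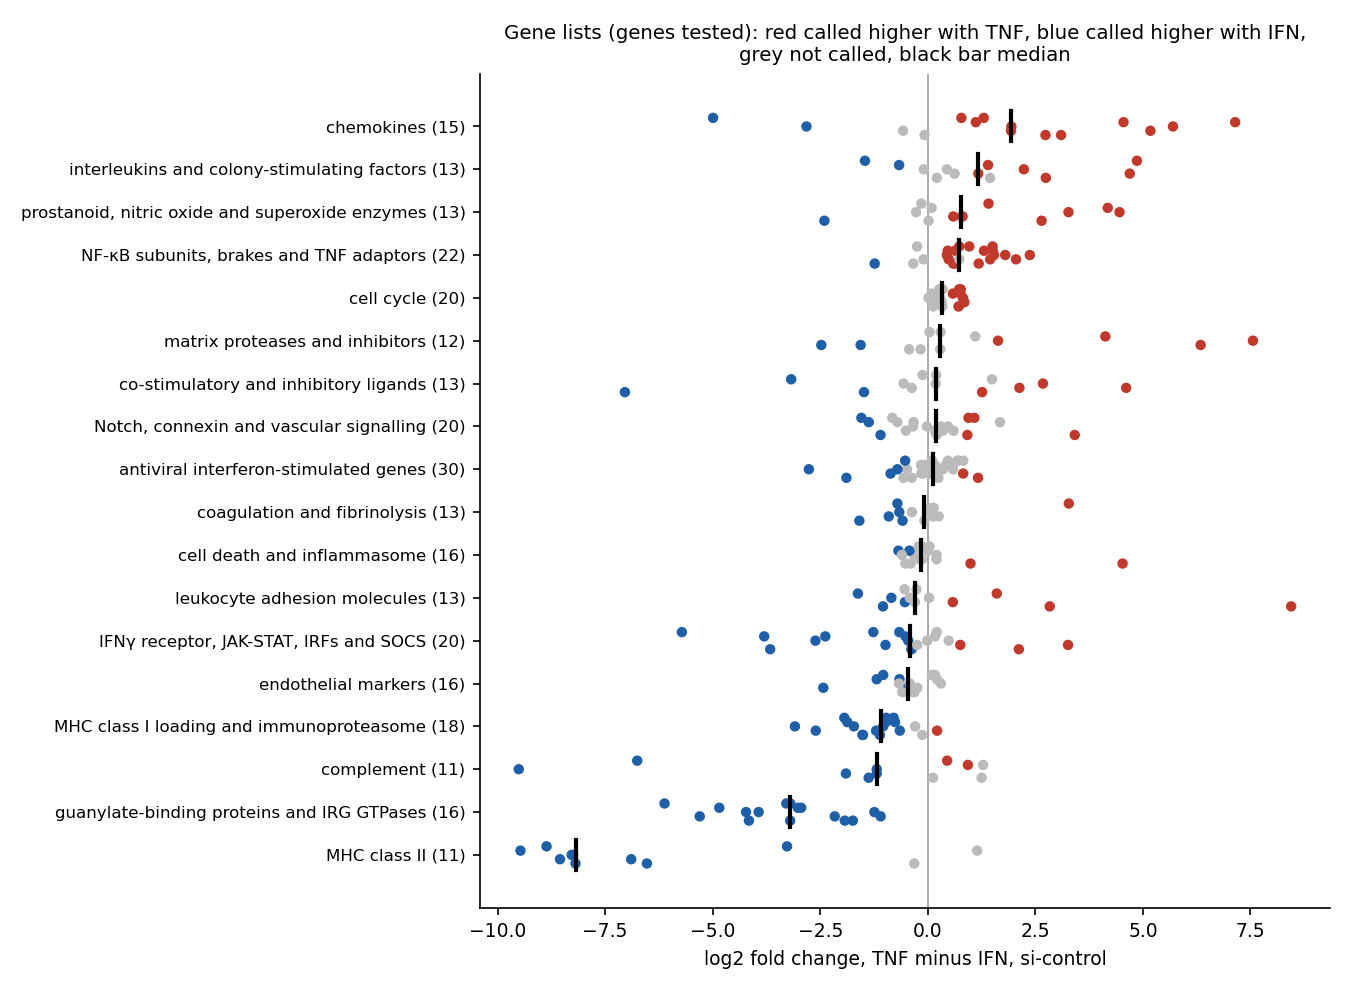
Log2 fold change, TNF minus IFN, of every tested member of the gene lists (x axis), with 1 point per gene, red where called higher with TNF, blue where called higher with IFN and grey where not called, and a bar at the median of each list. GTPases of the GBP and IRG families all lie left of 0 (median −3.20), chemokines mostly right (median 1.93), and antiviral genes close to 0 (median 0.12).

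Some genes rose with both cytokines without a called difference between them. By the rule of being called higher with each cytokine against no cytokine and not called between them, 293 of the 15250 genes tested were shared. Taken singly, 16.1% of all genes were called higher with TNF and 8.57% with IFN (14.6% and 5.92% lower), which is not the background of the joint rule. A gene can meet the rule through a missed call. With the replicate number as a block more genes were called between the cytokines (3038 higher with TNF and 3333 with IFN). The 6 with the largest smaller rise were Cxcl11, H2-Q6, Acod1, H2-Q7, H2-Q5 and C1s2. Acod1, which makes the antimicrobial metabolite itaconate, measured 1.74, 3.34, 0 and 0.135 CPM without cytokine, 68.9, 80.3, 26.2 and 29.9 CPM with TNF and 63.4, 77.4, 13.2 and 14.5 CPM with IFN (0.28 ± 0.58, adjusted p = 0.762 between them). H2-Q6, a non-classical class I gene, measured 129, 138, 56.5 and 56.4 and 183, 193, 33.2 and 40.2 CPM (−0.24 ± 0.57, adjusted p = 0.792). Both show IFN values spread further between the replicate sets than TNF values. H2-Q7 was called higher with IFN with the replicate number as a block (−0.67, adjusted p = 0.00221), and H2-Q5, H2-Q6 and H2-Q7 share near-identical sequence. Acod1 was called higher with TNF within replicates 3 and 4 (1.02, adjusted p = 2.07e-07). H2-Q5 and H2-Q6 were called higher with IFN within replicates 1 and 2 (−0.37 and −0.50) and higher with TNF within replicates 3 and 4 (0.36 and 0.62). Failing the test between the cytokines does not show equal levels. The 95% interval of the difference reached from −0.91 to 1.48 for Acod1 and from −0.63 to 0.48 for Cxcl10.

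Other genes were pushed apart, raised by one cytokine and lowered by the other. Ly6c1 (ENSMUSG00000079018), a GPI-anchored surface protein of ECs and leukocytes, measured 89.2, 104, 89.9 and 89.5 CPM without cytokine, 34.03, 34.9, 12.98 and 11.4 CPM with TNF and 995, 1184, 826 and 883 CPM with IFN (−5.38 ± 0.38, adjusted p = 1.5e-11). It fell with TNF (−1.998, adjusted p = 3.7e-05) and rose with IFN (3.38, adjusted p = 1.65e-08), though Ly6 genes are near-identical and its reads may be shared. Enpp2 (autotaxin), which makes the lipid mediator LPA, went the opposite way, with 4.46, 8.003, 2.07 and 2.42 CPM without cytokine, 51.2, 57.1, 54.4 and 55.2 CPM with TNF and 0.785, 1.46, 0.491 and 0.108 CPM with IFN (6.24 ± 0.42, adjusted p = 4.69e-12, and 6.90 without IFN replicate 2). St8sia6, a sialyltransferase, measured 0.563, 0.901, 0.132 and 0.359, 10.4, 8.11, 3.72 and 2.65 and 0.0560, 0.0520, 0.0545 and 0.0540 CPM in the same order of groups, a TNF to IFN count ratio of 115.3 (44.8 to 424.7). In these genes the resting level lay between the cytokines in every replicate.

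Mmp3 (stromelysin) measured 1.98, 2.30, 1.43 and 0.557 CPM with TNF and counts in 1 IFN library, a ratio of 115.9 (20.5 to 4612), with a fitted log2 fold change of 6.34 that became 8.07 without IFN replicate 2. Prg2, an eosinophil granule protein, measured 27.7, 31.2, 5.10 and 5.48 and 0.168, 0.260, 0.600 and 0.216 CPM (5.78 ± 0.77, adjusted p = 1.53e-06). On the IFN side were Kcnk10 (5.94, 8.17, 2.73 and 1.67 CPM with IFN), a potassium channel, Kif26b (3.25, 1.46, 1.91 and 1.94 CPM), a kinesin, and Ikzf4 (2.58, 1.77, 2.40 and 2.05 CPM), a zinc finger factor, each at most 0.215 CPM in any TNF library. Without TNF replicate 1, the fitted log2 fold change of Kcnk10 moved from −6.24 to −9.62 and that of Kif26b from −5.77 to −6.67. Ifngr1, Tnfrsf1a, Socs3, Cxcl5, Tnfsf4, Adamts4 and Timp3, described with their lists, were opposed as well.

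**Figure D4:**
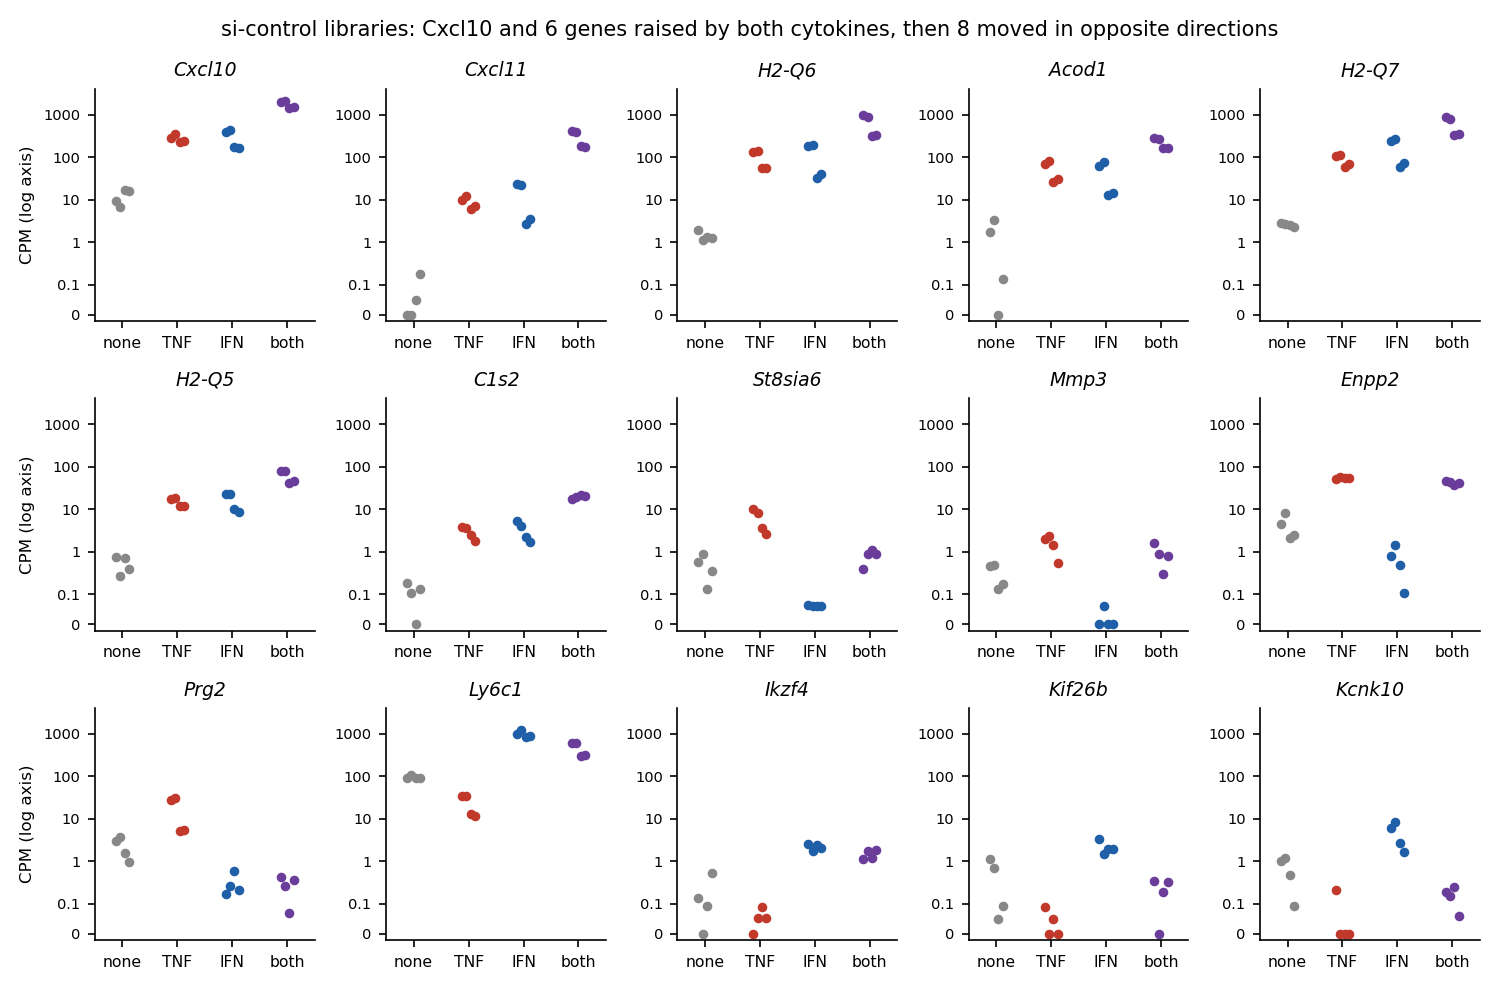
CPM on a log axis (0 at the bottom) of Cxcl10, the 6 shared responders and the 8 opposed genes, with 1 point per library for no cytokine, TNF, IFN and both together. TNF and IFN points of the shared genes overlap above the resting level, and Ly6c1 and Enpp2 lie above it with one cytokine and below it with the other.

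The same contrast in si-dnmt cells used separate libraries. There 1121 genes were higher with TNF (7.35%) and 1483 with IFN (9.72%). Of the calls in si-control, 2167 were also called in the same direction in si-dnmt, 50.1% of the si-control calls and 83.2% of the si-dnmt calls, and 2 were called in the opposite direction. The sign was the same for 4191 of 4327 si-control calls (96.9%). Over all genes tested Pearson's r of the log2 fold changes was 0.848, a description over genes that are not independent. In si-dnmt, 16 of 16 GBP and IRG genes, 9 of 11 MHC class II genes and 11 of 18 class I genes were higher with IFN, and 9 of 15 chemokines and 13 of 22 NF-κB genes were higher with TNF. Not every list carried over. The median of complement genes was −1.19 in si-control and 0.18 in si-dnmt, with 5 of 11 higher with IFN there. In si-dnmt 0 interleukin list genes were higher with IFN and 0 antiviral genes higher with TNF, beside 2 each in si-control.

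**Figure D5:**
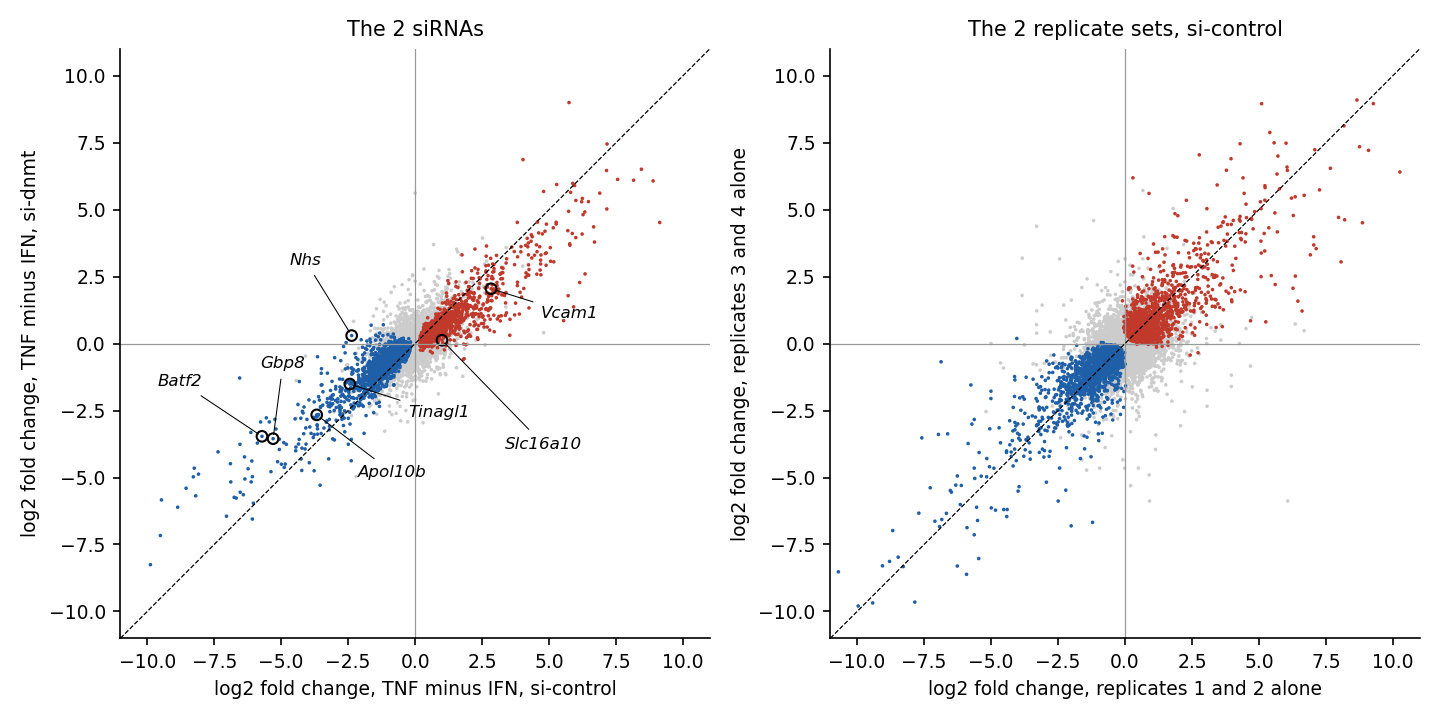
Log2 fold change, TNF minus IFN, of each tested gene, in si-control (x axis) against si-dnmt (y axis) on the left and in si-control replicates 1 and 2 (x axis) against replicates 3 and 4 (y axis) on the right, red or blue where called higher with TNF or IFN over all 4 si-control replicates, with a dashed line at equal values. On the left r was 0.848, and the 7 genes called in the test of the difference are circled and named.

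A test of the difference itself called 7 genes (0.0459%), with 938 at an unadjusted p under 0.05, 35 called by DESeq2 and 117 with the replicate number as a block. In Batf2 the preference for IFN was wider in si-control (−5.72 ± 0.27) than in si-dnmt (−3.46 ± 0.23), a difference of −2.25 ± 0.33, adjusted p = 0.00266. With TNF it measured 1.33, 1.64, 1.64 and 1.90 CPM in si-control and 9.43, 10.1, 5.17 and 6.58 CPM in si-dnmt, while its IFN values overlapped (59.5 to 112 and 66.4 to 106 CPM). Gbp8 (−1.75 ± 0.30) and Apol10b (−1.01 ± 0.20), both with paralogs, and Tinagl1 (−0.93 ± 0.17), a matrix-associated protein, showed the same order. Slc16a10, an amino acid transporter, measured 23.6, 24.1, 24.2 and 25.1 CPM with TNF and 11.7, 10.2, 13.5 and 13.02 CPM with IFN in si-control, and 15.9 to 19.7 and 15.1 to 16.3 CPM in si-dnmt (difference 0.88 ± 0.14, adjusted p = 0.00534). Vcam1 preferred TNF in both, by 2.83 ± 0.12 and 2.05 ± 0.11 (difference 0.79 ± 0.15, adjusted p = 0.0452). Nhs preferred IFN in si-control (−2.37 ± 0.38) and was not called in si-dnmt (0.30 ± 0.35).

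Most of these 7 differences were near the threshold. On leaving out each of the 16 libraries in turn 2 to 7 genes were called, the lowest without si-control + TNF replicate 1, with 3 or 4 without IFN 2 or 4 or TNF 2, 3 or 4 of si-control and without IFN 3 or 4 or TNF 3 or 4 of si-dnmt. The differences of Vcam1, Nhs, Apol10b and Tinagl1 lost their calls in 17, 17, 16 and 10 of the alternatives. That of Gbp8 was lost in 1 alternative, without si-control + TNF replicate 1 (−1.60, adjusted p = 0.0531) and that of Slc16a10 in 1, without the filter on low counts (0.90, adjusted p = 0.0533). That of Batf2 was called in every alternative run.

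Within the replicate sets, which the labels do not explain, the comparison was repeated. Replicates 1 and 2 alone called 2691 genes higher with TNF and 3117 with IFN, and replicates 3 and 4 alone 2907 and 3232. Of these, 3437 were called in both sets in the same direction and 183 in opposite directions. A test of the difference between the sets, added after the data were seen, called 2272 genes (14.9%), with 4186 at an unadjusted p under 0.05. The 12 leading genes each way were picked for no overlap between TNF and IFN libraries, which fixed their direction in both sets in advance. Cxcl10, Cxcl11 and H2-Q6 were among the 183 genes called in opposite directions.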

How the data were processed

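Bulk RNA-seq of 32 libraries (8 groups of 4) was used through the merged table of gene counts that the authors deposited, made per the labels with featureCounts from trimmed reads and not normalized. It matched the deposited per-library counts summed by symbol, with 0 cells differing, and 0 columns were left unmatched. The submitters' processing notes name cutadapt 4.9, FastQC 0.12.1, MultiQC 1.27.1, featureCounts and DESeq2. For the aligner, genome build, annotation and strand setting the sources used here give nothing, and reads of overlapping, antisense and near-identical genes cannot be told apart.

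Genes were kept by filterByExpr at a minimum count of 10, which left 15250 genes with at least 99.9% of the counts of each library. With edgeR 4.0.16 in R 4.3.3, the 8 group means were fitted jointly over the 32 libraries after TMM scaling. Each contrast took edgeR's quasi-likelihood F test (two-sided), p-values were adjusted by Benjamini-Hochberg across the genes tested, and genes were called at an adjusted p under 0.05. The method was tested on simulated data that held no replicate sets, so that test does not cover their effect. A count of 0 was taken to allow 3 counts per library, and ratios against groups with 3 counts or fewer per library carry exact Poisson intervals. Both cover counting error only. Same-group libraries differed beyond sampling noise (smallest chi-square per degree of freedom 3.63).

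Genes named were a fixed set of adhesion, chemokine, signalling and marker genes, the 12 largest called differences each way with a mean of at least 1 CPM and no overlap, up to 3 called genes each way per list with members its account needs, the genes called in the difference between siRNAs, 6 shared responders and up to 4 opposed genes each way. Predicted genes (Gm, Rik) were passed over. Some genes counted in the lists are not reported here by name. The genes and lists were chosen with earlier results of these data known.

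Same-numbered TNF and IFN libraries deviated together from their group means (r = 0.415, 0.41, 0.405 and 0.436). The main test fitted group means only and did not pair libraries by replicate number. The replicate number entered as a block only in an alternative. Pairs of different numbers within replicates 1 and 2 or 3 and 4 were as close (0.312 to 0.417), and pairs across these sets were opposed (−0.451 to −0.337). Alternatives were RLE size factors, library totals, no low-count filter, DESeq2 1.42.0, the compared groups alone, the replicate block, each replicate set alone, a 2-fold minimum and each library left out.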

Additional observations from a re-analysis of the deposited data

Results flagged for a closer look

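Of 247 sets of 4 values tested for a sample far from the others (Dixon's test at 95%), 8 were flagged, and chance flags about 1 in 20 sets. In 4 of them a single IFN library held the only counts of the group, namely Mmp9 in replicate 3 (0.1091 CPM), Mmp3 in replicate 2 (0.05202 CPM), Prnd in replicate 1 (0.05604 CPM) and Csf2 in replicate 1 (0.1681 CPM). Likewise Kcnk10 had counts in 1 TNF library, replicate 1 (0.2149 CPM). Tnfsf15 was high in TNF replicate 2 at 0.6564 CPM. Cd55 was lowest in TNF replicate 4 at 115.7 CPM, and Mmp13 in IFN replicate 3 at 0.2182 CPM.

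The TNF minus IFN log2 fold change differed between siRNAs (si-control minus si-dnmt, quasi-likelihood test) for 7 genes. The difference was −2.67 for Nhs, −2.25 for Batf2, −1.75 for Gbp8, −1.01 for Apol10b, −0.93 for Tinagl1, 0.79 for Vcam1 and 0.88 for Slc16a10.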

How the results depend on the processing

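The direction of the named differences held under most alternatives. Over 321 named genes, the replicate block kept 276 calls or lacks of a call and added 45 with 0 lost, and it kept all 4327 genes called between TNF and IFN in si-control, with 3038 higher with TNF and 3333 with IFN. Besides the changes given with the results, it moved list counts higher with IFN from 11 to 12 (JAK-STAT), 15 to 16 (MHC class I) and 5 to 6 (coagulation), and those higher with TNF from 17 to 18 (NF-κB), 6 to 7 (interleukins), 8 to 10 (cell cycle) and 7 to 8 (prostanoid enzymes), and it called the markers Krt18 and Col1a1 higher with IFN. Sign turned for 12 genes, none of which was called over all 4 replicates and each of which was called the other way in the other replicate set. In replicates 3 and 4 alone these were Cxcl10 (0.46), Cxcl11 (1.09), H2-Q6 (0.62), H2-Q5 (0.36), Oas3 (0.40), Oasl2 (0.22), F3 (0.45), Plat (−0.44), Birc5 (−0.38), E2f1 (−0.29) and Tek (−0.34), and in replicates 1 and 2 alone Plaur (−0.28). The cause was not tested.

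Counts of called genes moved by over 1.5 times as follows. A 2-fold minimum, which by construction calls fewer, gave 554 and 805 higher with TNF and IFN in si-control, 356 and 482 in si-dnmt, 4 for the difference between siRNAs, 767 higher and 695 lower with TNF against no cytokine, and 622 and 253 with IFN. The compared groups alone (fewer samples) gave 1476 higher with IFN than TNF, 1630 higher with TNF against none, and 868 higher and 522 lower with IFN against none. In that setting 16 named genes lost their call, namely Icam1, Cd40, Pecam1, Jam2, Canx, Ifit1, Tnfsf10, Cd59a, Vegfa, Nos2, Stat5a, Irf3, Parp9, Bub1, Mcm4 and Mcm5. The replicate block gave 2072 and 2556 in si-dnmt, 117 for the difference and 1938 lower with IFN. Replicates 1 and 2 alone gave 2278 and 2598 in si-dnmt, 336 for the difference, and 2172 higher and 1730 lower with IFN. Replicates 3 and 4 alone gave 1706 higher with TNF in si-dnmt, 707 for the difference and 1518 lower with IFN. No low-count filter gave 2 for the difference and 569 lower with IFN, DESeq2 gave 35 for the difference, and library totals gave 1630 lower with IFN.

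Leaving out 1 library gave 1695 to 2048 higher with TNF and 1766 to 2317 with IFN in si-control, 777 to 1014 and 1119 to 1509 in si-dnmt, 2 to 7 for the difference, 2086 to 2407 higher and 1860 to 2097 lower with TNF, and 1043 to 1249 higher and 599 to 905 lower with IFN. The 599 came without si-control replicate 2. Depth limits genes below about 0.16 CPM, where 3 counts are the floor.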

Other observations

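Enzymes of prostanoids, nitric oxide and superoxide, a list the results above did not cover, leaned to TNF. Of 13 tested, 7 were higher with TNF and 1 with IFN, beside 13.3% and 15.1% of all genes. The median log2 fold change was 0.76. Ptgs1 (COX-1), the constitutive cyclooxygenase, measured 34.1, 37.3, 22.7 and 22.3 CPM without cytokine, 5.37, 7.74, 1.86 and 2.00 CPM with TNF and 24.3, 32.7, 15.8 and 17.0 CPM with IFN (−2.40 ± 0.54, adjusted p = 0.00122), and fell with TNF (−2.78, adjusted p = 0.000293). Ptgs2 (COX-2), the inducible one, measured 321, 334, 818 and 749 CPM with TNF and 294, 258, 397 and 359.7 CPM with IFN, and was not called (0.76 ± 0.34, adjusted p = 0.0956, and with the block 0.67, adjusted p = 0.0104). Ptgds, a prostaglandin D synthase, was higher with TNF at 14.1, 16.5, 6.23 and 5.85 against 1.01, 0.832, 0.218 and 0.270 CPM (4.18 ± 0.74, adjusted p = 7.41e-05), as were Ptges (3.27 ± 0.66) and the arginase Arg2 (2.64 ± 0.50, adjusted p = 0.000171). Nos2, the inducible nitric oxide synthase, measured 14.4, 18.1, 19.0 and 15.1 and 5.60, 16.1, 1.36 and 1.94 CPM (1.41 ± 0.50, adjusted p = 0.0338). IFN replicate 2 stood apart from the other IFN libraries, and without it the log2 fold change was 2.51 (adjusted p = 0.000316), while the call was lost without IFN 1, 3 or 4 or TNF 2 or 3 (adjusted p up to 0.113). Nos3, the endothelial enzyme, fell with both cytokines and was not called between them (0.02, adjusted p = 0.932).

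In the list of Notch, connexin and vascular signalling genes 4 of 20 were higher with TNF and 3 with IFN. These shares were near the 13.3% and 15.1% of all genes, and the median was 0.18. With the replicate number as a block the counts were 6 and 6, beside 3038 and 3333 of all genes. Vegfc, the lymphatic growth factor, measured 4.08, 3.66, 11.5 and 9.79 CPM with TNF and 0.448, 0.676, 0.873 and 0.702 CPM with IFN (3.41 ± 0.40, adjusted p = 1.58e-07). Jag1, a Notch ligand, rose with TNF (0.81, adjusted p = 6.45e-05) and was higher than with IFN (0.95 ± 0.14, adjusted p = 7.87e-06), while Notch1 measured 119.7, 152, 136 and 132 and 245, 299.9, 265 and 347 CPM (−1.10 ± 0.12, adjusted p = 2.9e-08), a fall with TNF (−0.78, adjusted p = 7.89e-06). Edn1 (endothelin 1), a vasoconstrictor, measured 229.8, 214, 199.6 and 216 CPM without cytokine, 236, 236, 161 and 156 with TNF and 109.6, 108, 95.5 and 104 with IFN (0.92 ± 0.18, adjusted p = 0.000218), with the fall on the IFN side (−1.04, adjusted p = 7.66e-05). Ackr3, a scavenger of Cxcl12, was higher with IFN (−1.54 ± 0.36, adjusted p = 0.00152). Calls of Vegfa (1.08) and Angpt2 (−1.37) were lost on leaving out any one of IFN 1, IFN 2, TNF 3 or TNF 4 (adjusted p up to 0.127 and 0.143).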
